A study of Mus musculus with 4 samples.

Results

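The regions described here were the H3K23pr peaks of mouse liver that lie in olfactory receptor gene clusters. A peak was taken when it was on chromosomes 1 to 19 and overlapped a protein-coding gene whose symbol starts with Olfr, or the 10 kb on either side of one, in the RefSeq annotation of GRCm38.p6. By this rule 382 of the 54397 peaks called in the WT library and 291 of the 41907 peaks called in the KO library were taken, 673 of 96304 peaks in all. They made up 0.715% of the autosomal peaks in WT and 0.708% in KO. The rule used position only, so the number of peaks, their height and their presence in WT or KO were free to vary.

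H3K23pr is propionylation of lysine 23 of histone H3, an acyl mark added from propionyl-CoA and associated with open, active chromatin. The study concerns RPN11, the deubiquitylating subunit of the proteasome lid, in fatty liver disease. All 4 libraries came from the liver of male C57BL/6 mice: an immunoprecipitate (IP) and an input from RPN11 flox/flox animals, called WT after the sample titles, and an IP and an input from mice with a hepatocyte-specific RPN11 knockout, called KO. The WT animals carry the floxed allele too, and the labels give no age, diet, Cre driver or number of animals per library. Each group was 1 library, so no difference between WT and KO has a replicate check, no test was made, and every interval below is an exact 95% interval for counting error only. The peak lists hold no expression values, so neither the silence of the receptor genes nor the loss of RPN11 could be checked in them. In bulk liver, the mark in fewer cells and less of the mark per cell cannot be told apart.

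Olfactory receptors are odorant-binding receptors coupled to G proteins and form the largest gene family of the mouse. Each mature olfactory neuron expresses 1 receptor gene from 1 allele, and the genes stand in tandem clusters that are kept silent in nearly all other cells, the hepatocyte among them. Class I receptors sit in a single cluster next to the beta-globin genes, and class II receptors fill the other clusters. Nearly all have their coding sequence in 1 short exon. The annotation held 1104 Olfr genes on 16 autosomes, with 287 on chromosome 2, 239 on chromosome 7 and 130 on chromosome 9. Their median length was 950 bp, with quartiles of 939 and 1039 bp. With 10 kb on each side they covered 19.8 Mb, 0.825% of the 2404 Mb of chromosome length considered, in 551 separate pieces. Genes less than 500 kb apart were joined into 53 clusters, of which 32 held 5 or more genes.

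In all, 9 Olfr genes had a peak in the 300-base window that runs from 250 bases before to 50 bases after the annotated start. The 250 bases before the start are shown for the 8 of them in which a peak covered part of those bases, to let the peaks by receptor gene starts be seen in their sequence. Sequences are from RefSeq on GRCm38.p6, read 5′ to 3′ on the strand of the gene, and capitals mark the bases under the peak.
Olfr711, KO peak: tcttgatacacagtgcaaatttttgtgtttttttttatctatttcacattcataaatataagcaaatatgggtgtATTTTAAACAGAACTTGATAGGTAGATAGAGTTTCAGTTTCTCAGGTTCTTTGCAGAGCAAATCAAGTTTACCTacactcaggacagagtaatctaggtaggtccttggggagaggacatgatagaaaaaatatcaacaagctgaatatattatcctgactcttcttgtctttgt
Olfr1013, KO peak: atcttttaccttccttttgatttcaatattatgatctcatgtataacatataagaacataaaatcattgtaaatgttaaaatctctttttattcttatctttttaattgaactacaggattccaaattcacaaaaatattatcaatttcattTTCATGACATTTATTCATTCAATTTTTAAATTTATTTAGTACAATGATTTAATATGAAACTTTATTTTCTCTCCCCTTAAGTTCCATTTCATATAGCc
Olfr1205, KO peak: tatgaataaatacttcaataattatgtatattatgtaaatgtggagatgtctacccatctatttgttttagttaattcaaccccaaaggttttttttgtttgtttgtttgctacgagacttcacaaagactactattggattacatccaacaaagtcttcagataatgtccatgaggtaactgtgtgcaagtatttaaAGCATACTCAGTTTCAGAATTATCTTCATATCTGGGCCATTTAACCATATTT
Olfr1186, WT peak: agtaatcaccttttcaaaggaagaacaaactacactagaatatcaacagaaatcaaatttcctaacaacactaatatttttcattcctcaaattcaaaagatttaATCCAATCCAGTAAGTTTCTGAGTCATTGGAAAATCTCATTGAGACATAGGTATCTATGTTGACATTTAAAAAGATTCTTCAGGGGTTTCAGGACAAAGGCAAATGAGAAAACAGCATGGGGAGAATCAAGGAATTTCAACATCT
Olfr1121, WT peak: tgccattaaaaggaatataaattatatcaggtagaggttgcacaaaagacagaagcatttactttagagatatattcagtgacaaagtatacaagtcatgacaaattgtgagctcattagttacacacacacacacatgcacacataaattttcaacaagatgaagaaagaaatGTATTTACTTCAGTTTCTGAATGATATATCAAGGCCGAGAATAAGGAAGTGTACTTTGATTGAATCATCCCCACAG
Olfr582, WT peak: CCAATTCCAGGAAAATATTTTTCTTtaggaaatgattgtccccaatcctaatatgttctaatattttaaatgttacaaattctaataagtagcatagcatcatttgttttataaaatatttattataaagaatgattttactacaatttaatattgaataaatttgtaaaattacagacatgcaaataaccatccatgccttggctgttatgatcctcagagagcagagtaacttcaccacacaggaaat
Olfr524, WT peak: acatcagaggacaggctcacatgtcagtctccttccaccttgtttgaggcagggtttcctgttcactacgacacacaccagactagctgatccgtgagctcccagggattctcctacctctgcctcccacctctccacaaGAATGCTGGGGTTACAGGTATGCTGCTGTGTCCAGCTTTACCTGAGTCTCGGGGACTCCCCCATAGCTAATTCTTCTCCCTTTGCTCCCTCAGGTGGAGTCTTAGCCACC
Olfr887, WT peak: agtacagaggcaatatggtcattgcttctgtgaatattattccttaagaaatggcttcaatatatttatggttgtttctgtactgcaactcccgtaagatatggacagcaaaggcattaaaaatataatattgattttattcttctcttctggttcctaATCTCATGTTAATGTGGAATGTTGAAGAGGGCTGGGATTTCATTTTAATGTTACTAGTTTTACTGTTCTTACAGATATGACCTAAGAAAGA
The bases shown for Olfr711 are chr7:106975452-106975701 and those for Olfr524 chr7:140202769-140203018, both on the minus strand. The others are on the plus strand, at chr2:85769553-85769802 for Olfr1013, chr2:88829507-88829756 for Olfr1205, chr2:88525251-88525500 for Olfr1186, chr2:87371284-87371533 for Olfr1121, chr7:103041231-103041480 for Olfr582 and chr9:38084588-38084837 for Olfr887. The Olfr711 peak covered 74 of the 250 bases, the Olfr1013 peak 97 and the Olfr1186 peak 145. At Olfr582, the only one of the 8 in the class I cluster, the peak reached only the first 25 bases, and it was the highest, with 7 IP fragments over its summit. The other peaks had 4 fragments, except for those of Olfr1013 and Olfr887, which had 5. The peaks of Olfr1205, Olfr1186, Olfr1121, Olfr524 and Olfr887 ran on past the start. The bases shown for Olfr524 lie inside the annotated gene, which spans 140201386 to 140205279, so the start used there is an internal one.

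The sequences are rich in A and T, except for that of Olfr524, whose GC content was 54.4%. Median GC content of the 250 bases was 34% over 942 windows of 938 Olfr genes and 56.8% over the windows of the other protein-coding genes. The annotated start was followed at once by ATG in 72.2% of Olfr windows against 4.48% of the others, so for most receptor genes the table gives the start codon, and the window is not the promoter from which the gene is transcribed in olfactory neurons. A 6-base palindrome that homeodomain factors bind, TAATTA, was in 18.2% of Olfr windows and in 3.57% of the others, on either strand. CCCNNGGG, the core of the sites of Ebf (Olf1) factors, was in 2.76% against 14.4%, and TATAAA in 39.3% against 10.4%. TAATTA and TATAAA hold only A and T, and the fixed bases of CCCNNGGG are only C and G. The shares were not compared at equal GC content, so the part of base composition in them was not tested. Among the 9 windows with a peak, TAATTA was in that of Olfr1205 alone, TATAAA in those of Olfr1121 and Olfr582, and CCCNNGGG in none. These are matches of letters and show no binding.

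A WT peak lay in the 300-base window of 6 of the 938 Olfr genes with a window, 0.640% with an interval of 0.235 to 1.39%. Of all 16457 protein-coding genes with a window, 0.438% had one. For KO the numbers were 3 genes, or 0.320% (0.0660 to 0.932%), against 0.207% of all genes. Peaks at gene starts were rare everywhere, and receptor genes did not stand apart from the rest within counting error. No Olfr gene had a peak in its window in both lists. The matching share of all genes was not computed, and 6 and 3 genes leave little room for such an overlap.

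Olfactory receptor territory held somewhat fewer peaks than its chromosomes would give. Each peak was placed by its midpoint, and the number expected was the length of Olfr territory on each chromosome times the peak density of the rest of that chromosome. In WT, 381 midpoints fell in Olfr territory, 19.2 per Mb (17.3 to 21.2), where 442.3 were expected at 22.3 per Mb. The observed number was 0.861 times the expected one, with an interval of 0.777 to 0.952. In KO, 290 midpoints gave 14.6 per Mb (12.99 to 16.4) against 327.2 expected at 16.5 per Mb, a ratio of 0.886 (0.787 to 0.994). The clusters were thus not empty of peaks.

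Counting error is not the only spread between regions. Over 2314 stretches of 1 Mb without Olfr territory, WT peaks numbered 22.2 on average with an SD of 7.93, and their variance was 2.83 times the mean. In KO the mean was 17.1, the SD 9.95 and the variance 5.79 times the mean. The intervals for observed over expected are therefore narrower than the real spread of peaks along the chromosomes. Whether the deficit in Olfr territory exceeds that spread was not tested.

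Other tandem gene families give a scale for this deficit. The 354 vomeronasal receptor genes (Vmn1r and Vmn2r), pheromone receptors that are silent in liver as well, had 12.4 WT peaks per Mb, 0.592 times the expected number (0.494 to 0.704), and 9.76 KO peaks per Mb, 0.642 times (0.523 to 0.780). Their intervals did not overlap those of the olfactory receptors in either list, though in KO the limits, 0.780 and 0.787, nearly touched. By counting error alone the olfactory receptor clusters were the less depleted of these 2 chemosensory families. Against the wider spread between regions given above, this order was not tested. The 391 zinc finger genes named Zfp, which encode DNA-binding repressors and activators and also stand partly in clusters, were at 0.975 times the expected number in WT (0.883 to 1.07) and 1.13 times in KO (1.02 to 1.25). Territory of the remaining protein-coding genes had 1.16 times the expected number in WT and 1.09 times in KO. Each set was compared with the sequence outside that set, so the references differ, and here they were 20.6 per Mb in WT and 16.3 in KO. With territory of the other protein-coding genes as the reference, Olfr territory was at 0.819 times (0.739 to 0.905) in WT and 0.865 times (0.768 to 0.971) in KO.

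**Figure D1:**
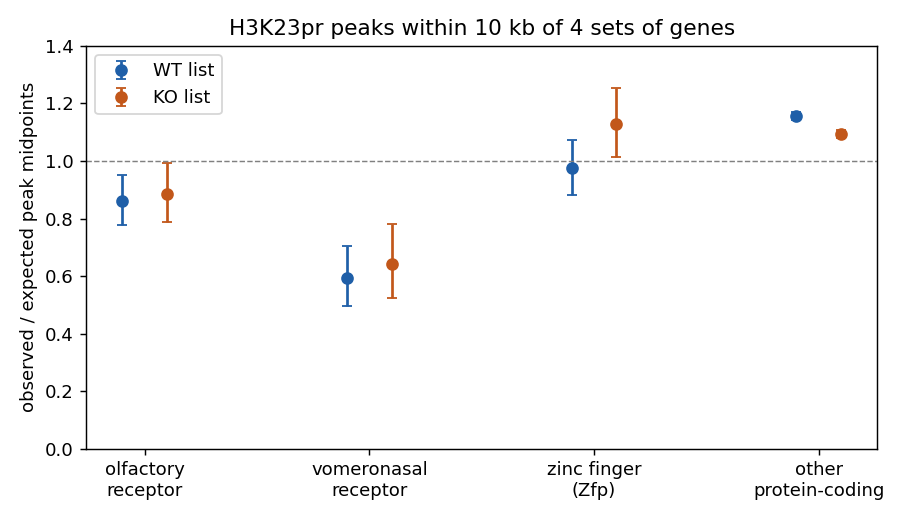
Observed over expected number of H3K23pr peak midpoints (y axis) within 10 kb of olfactory receptor, vomeronasal receptor, Zfp and other protein-coding genes (x axis), for the WT list in blue and the KO list in orange. Points are ratios to the rest of the same chromosomes outside each set, so the references differ between sets. Bars are exact 95% intervals for counting error, and the dashed line marks 1. Olfactory receptors lie at 0.861 and 0.886, between vomeronasal receptors and zinc finger genes.

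By chromosome, Olfr territory was below expectation on 12 of 16 chromosomes in WT, on 14 in KO and on 11 in both. Chromosome 19 was lowest among those with 20 or more Olfr genes, with 7 WT peaks against 17.5 expected (0.399 times, 0.160 to 0.822) and 4 KO peaks against 12.5 (0.321 times, 0.0874 to 0.821). On chromosome 9, 30 WT peaks stood against 57.3 expected (0.524 times, 0.353 to 0.748), while 34 KO peaks stood against 40.9 (0.832 times, 0.576 to 1.16). Chromosome 10 was at 0.866 times in WT (0.566 to 1.27) and at 0.540 times in KO (0.288 to 0.924). Chromosome 2, with the most Olfr genes, was near its own average, at 119 peaks against 131.7 in WT and 102 against 102.9 in KO.

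Chromosome 7 was the only chromosome above expectation in both lists. Its Olfr territory held 88 WT peaks against 74.7 (1.18 times, 0.944 to 1.45) and 66 KO peaks against 49.2 (1.34 times, 1.04 to 1.71). The KO interval was above 1 and the WT interval included it. The family as a whole was thus a mixture: without chromosome 9, the ratio was 0.912 (0.819 to 1.01) in WT and 0.894 (0.788 to 1.01) in KO, and without chromosome 19 it was 0.880 (0.793 to 0.974) in WT and 0.909 (0.807 to 1.02) in KO. Leaving out chromosome 7 instead gave 0.797 and 0.806. None of these omissions put the ratio above 1.

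**Figure D2:**
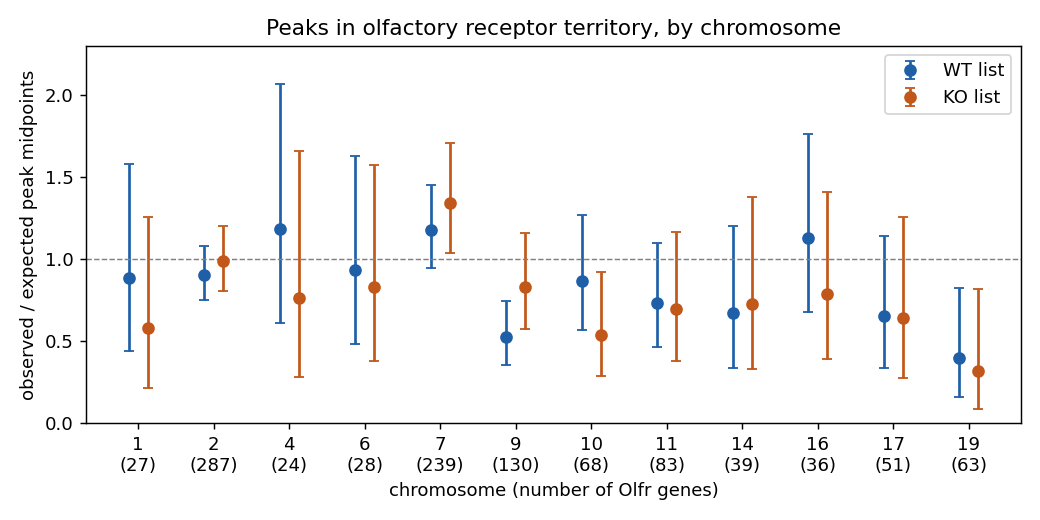
Observed over expected number of peak midpoints in olfactory receptor territory (y axis) for the 12 chromosomes with more than 0.4 Mb of it (x axis, number of Olfr genes in brackets), WT in blue and KO in orange, with exact 95% intervals for counting error. Chromosome 19 lies at 0.399 and 0.321, and chromosome 7 lies above the dashed line at 1 in both lists, at 1.18 and 1.34.

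The clusters varied widely around that average. Among the 32 clusters of 5 or more genes, peak density ran from 5.20 to 46.4 per Mb in WT, with a median of 18.5, and from 0 to 28.2 in KO, with a median of 11.7. In WT 22 clusters were below and 10 above expectation, in KO 24 and 8. Of these, 18 were below in both lists, 4 above in both and 10 on opposite sides. The expected number fell outside the counting interval of 5 clusters in WT and 3 in KO. The matching share of stretches without Olfr genes was not computed, and these intervals leave out the spread between regions given above. Across the 32 clusters, observed over expected in WT and KO had a Spearman rho of 0.12 and a Pearson r of 0.30, as a description, since most clusters hold few peaks and the clusters differ in length.

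**Figure D3:**
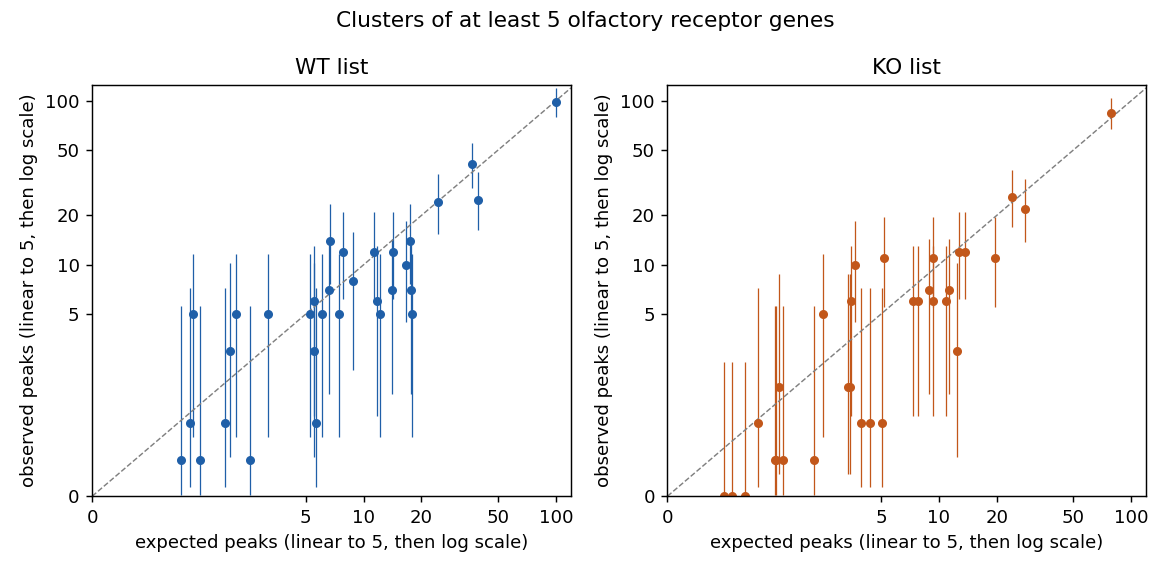
Observed (y axis) against expected (x axis) number of peaks for each of the 32 clusters of 5 or more Olfr genes, WT list left and KO list right, on axes that are linear up to 5 and logarithmic above. Vertical bars are exact 95% intervals for counting error and the dashed line marks equality; 22 WT points and 24 KO points lie below the line.

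The largest cluster, on chromosome 2 between 85330967 and 90401674, holds 222 class II genes from Olfr987 to Olfr1274. It had 98 WT peaks against 100.2 expected and 84 KO peaks against 78.3, ratios of 0.978 (0.794 to 1.19) and 1.07 (0.856 to 1.33). Its peaks had a median of 5 fragments in both lists, and 6 in each list had 7 or more. A peak lay within 10 kb of 99 of its genes in WT (44.6%) and of 82 in KO (36.9%), against 58.4% and 39.9% of all autosomal protein-coding genes. Its peak number thus differed from that of its chromosome by less than the counting error.

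The class I cluster on chromosome 7, from 102476773 to 105369317, holds 126 Olfr genes from Olfr543 to Olfr692 around 5 Hbb genes. These are the receptors of fish-like type, many of them tuned to carboxylic acids. It had 41 WT peaks against 36.5 expected (1.12 times, 0.805 to 1.52) and 26 KO peaks against 24.0 (1.08 times, 0.707 to 1.59). The 978 class II genes together were at 0.838 times (0.751 to 0.932) in WT and 0.871 times (0.769 to 0.982) in KO. The intervals of the 2 classes overlapped, so a difference between them was not resolved at this depth. In WT the highest class I peaks had 7 fragments and lay by Olfr582, Olfr68 and Olfr78. In KO none had more than 6, and 7 had 6, by Olfr545, Olfr551, Olfr570, Olfr616, Olfr645, Olfr646 and Olfr675.

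The chromosome 7 cluster from 140162010 to 140705191 was the only cluster of 5 or more genes among the 3 densest in both lists. It holds 19 genes from Olfr522 to Olfr541. There were 14 WT peaks against 6.67 expected (2.098 times, 1.15 to 3.52) and 10 KO peaks against 4.39 (2.28 times, 1.09 to 4.19). Their heights were at the low end of the range: the WT peaks had 4, 5 or 6 fragments, with 5, 5 and 4 peaks of each, and 9 of the 10 KO peaks had 4 or 5. The remaining KO peak, of 7 fragments, lay 466 bp from Olfr535. Peaks of both lists stood within 10 kb of Olfr524, Olfr533, Olfr538, Olfr46 and Olfr541, but none overlapped. This cluster and the others named as densest or sparsest were picked by these same densities, so their ratios and intervals are a description.

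Also on chromosome 7, the cluster of 25 genes from Olfr693 to Olfr716 had 12 WT peaks against 7.86 expected (1.53 times, 0.789 to 2.67) and 11 KO peaks against 5.17 (2.13 times, 1.06 to 3.81). At the other end was chromosome 19, whose 63 Olfr genes form 1 cluster from 11828077 to 13919972. Its 7 WT peaks were of 4 or 5 fragments and lay near Olfr1428, Olfr1443, Olfr1448, Olfr1451, Olfr1462, Olfr1474 and Olfr1487. Its 4 KO peaks had 5, 6, 7 and 4 fragments and lay near Olfr1443, Olfr1448, Olfr1489 and Olfr1495. A peak lay within 10 kb of 8 of its 63 genes in WT (12.7%) and of 4 in KO (6.35%), where 35.5% and 26.9% of all Olfr genes, and 58.4% and 39.9% of all protein-coding genes, had one.

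On chromosome 9, both large clusters had fewer WT peaks than expected beyond the counting error, and KO peaks within it. The cluster of 35 genes centred at 19.5 Mb had 5 WT peaks against 17.8 expected (0.280 times, 0.0910 to 0.654) but 12 KO peaks against 12.7 (0.943 times, 0.487 to 1.65), all with 4 or 5 fragments. The cluster of 95 genes from Olfr160 to Olfr986 had 25 WT peaks against 39.4 (0.634 times, 0.410 to 0.936) and 22 KO peaks against 28.1 (0.782 times, 0.490 to 1.18). On chromosome 10, the cluster of 58 genes from Olfr9 to Olfr827 had 24 WT peaks against 24.4 and 11 KO peaks against 19.5 (0.563 times, 0.281 to 1.01). In each of these clusters the WT and KO intervals for observed over expected overlapped.

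Small clusters gave the extreme densities on few peaks. The 6 genes of the chromosome 4 cluster centred at 43.8 Mb, which include Olfr159 and Olfr155, had 5 WT peaks against 2.35 expected and 0 KO peaks against 1.83, where up to 3.69 peaks were within the interval. The 8 genes of the chromosome 1 cluster centred at 92.6 Mb had 4 WT peaks, of 10, 7, 5 and 4 fragments, and 1 KO peak of 4 fragments. The 12 genes centred at 21.4 Mb on chromosome 13 had 5 WT and 6 KO peaks. KO peaks were also at 0 in the cluster of 8 genes centred at 6.5 Mb on chromosome 7, with 2 WT peaks, and in the cluster of 5 genes centred at 51 Mb on chromosome 11, with 1. The sparsest WT density was that of the 9 genes centred at 98.3 Mb on chromosome 15, with 1 peak in each list.

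**Figure D4:**
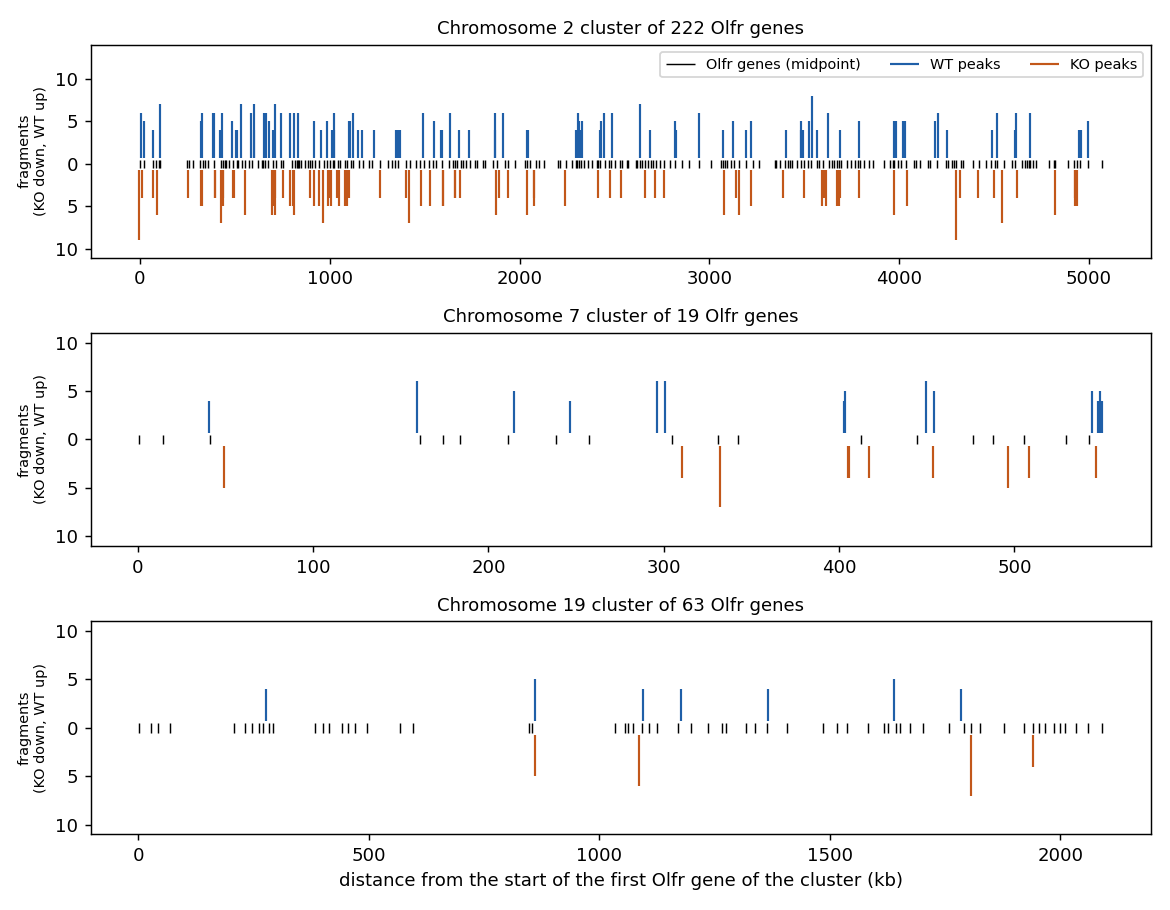
Peaks along 3 clusters, by distance from the start of the first Olfr gene (x axis, kb), with Olfr genes as black ticks, WT peaks as blue bars upward and KO peaks as orange bars downward; bar length is the number of IP fragments over the summit (y axis). The chromosome 2 cluster of 222 genes carries peaks along its whole length, the chromosome 7 cluster of 19 genes has 14 WT and 10 KO peaks, and the chromosome 19 cluster of 63 genes has 7 and 4.

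The peaks of Olfr territory were low ones. Their pileup, the number of IP fragments over the summit, ran from 4 to 10 in both lists, and peaks had been called at a p threshold of 0.001. Peaks above 10 fragments were rare elsewhere too, at 0.289% of the other autosomal peaks in WT and 0.478% in KO. The count of 0 in Olfr territory allows up to 0.961% and 1.26%. A pileup of 4 can hold as few as 2 different fragments, since up to 2 fragments with the same ends were kept. Peaks of 4 fragments were 165 of 382 in WT, 43.2% (38.2 to 48.3%), against 37.2% of all autosomal peaks, and 156 of 291 in KO, 53.6% (47.7 to 59.4%), against 42.3%. Peaks of 8 or more fragments were 7 in WT, 1.83% (0.740 to 3.74%), against 4.3%, and 5 in KO, 1.72% (0.560 to 3.96%), against 3.45%. A caller q-value of 0.05 or smaller was reached by 23 WT peaks, 6.02% (3.85 to 8.90%), against 9.61%, and by 58 KO peaks, 19.9% (15.5 to 24.99%), against 27.4%. In both lists peaks past the stricter caller threshold were thus less frequent than across the autosomes, and peaks of 4 fragments more frequent. In WT this was not particular to Olfr territory: of vomeronasal receptor peaks, 51.5% had 4 fragments and 3.85% reached that q-value. In KO these shares were 44.6% and 21.8%. Zinc finger gene peaks gave 34.1% and 8.63% in WT, and 39.8% and 29.8% in KO. Among Olfr peaks at the lowest common background of the list, the share of 4-fragment peaks was 45.7% (39.98 to 51.5%) in WT and 54.9% (48.8 to 60.8%) in KO. The other peaks at that background gave 42.7% in WT, inside the interval, and 45.9% in KO, below it.

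**Figure D5:**
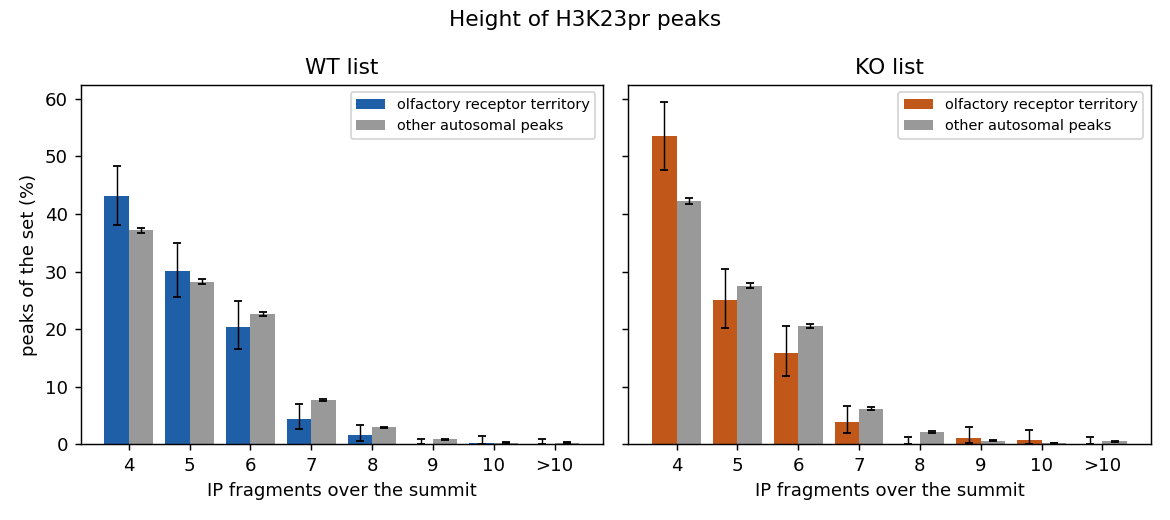
Share of peaks (y axis, percent) by number of IP fragments over the summit (x axis), for olfactory receptor territory (coloured) and all other autosomal peaks (grey), WT left and KO right, with exact 95% intervals for counting error. Peaks of 4 fragments make up 43.2% of olfactory receptor peaks in WT and 53.6% in KO. No olfactory receptor peak exceeds 10 fragments, and 0.289% of the other autosomal peaks in WT and 0.478% in KO do.

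Fold over background, as the caller gave it, did not separate the WT peaks from the rest: the median was 3.54 in Olfr territory and 3.52 elsewhere. In KO it was 3.19 against 3.83. The background that the caller set from the input was at its lowest common level for 79.1% of Olfr peaks in WT (74.6 to 83.0%), against 66.2% of all autosomal peaks, and for 95.2% in KO (92.1 to 97.3%), against 84.6%. It exceeded 2 times that level at 2 Olfr peaks in WT (0.524%), against 4.28% of the other peaks, and at 1 in KO (0.344%), against 1.10%. In WT, peaks on raised input were therefore rarer in Olfr territory than elsewhere. Background was at its lowest common level for 72.3% of vomeronasal receptor peaks in WT and 96.0% in KO. For zinc finger gene peaks these shares were 61.2% and 77.7%. With peaks on background above 2 times the lowest left out everywhere, observed over expected for Olfr territory was 0.895 (0.807 to 0.990) in WT and 0.892 (0.792 to 1.00) in KO. WT peaks had a median width of 129 bp, against 130 bp for other WT peaks, and KO peaks one of 90 bp, against 92 bp. Fragments averaged 97 bp in the WT libraries by the file headers and 71 bp in those of KO.

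Within Olfr territory, peaks showed no marked preference for the genes. Of the WT midpoints, 35 (9.19%, 6.48 to 12.5%) were inside an Olfr gene, 81 (21.3%, 17.3 to 25.7%) within 2 kb of a gene end and 265 (69.6%) 2 to 10 kb away. The genes made up 10.7% of the territory, the first 2 kb outside them 22.0% and the rest 67.3%. In KO 25 (8.62%, 5.66 to 12.5%) were inside a gene, 76 (26.2%, 21.2 to 31.7%) within 2 kb and 189 (65.2%) farther. Each share of the territory was inside the matching interval. For peaks outside a gene whose strand is known, 159 WT peaks were upstream of the nearest Olfr gene and 122 downstream, and 112 and 109 in KO. At the border of the rule, 18 WT peaks were 9 to 10 kb from the nearest Olfr gene and 20 were 10 to 11 kb away, with medians of 5 fragments on both sides. In KO these were 10 and 9 peaks with medians of 4 fragments. Only 2 WT and 6 KO peaks touched a protein-coding gene other than an Olfr gene.

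The 10 WT peaks with the lowest caller p lay on 7 chromosomes. The first, chr1:92474244-92474352, was 5329 bp downstream of Olfr1416, with 10 fragments and 6.50-fold over background. Peaks of 8 fragments were near Olfr821 and Olfr827 on chromosome 10, Olfr1206 on chromosome 2, Olfr1359 on chromosome 13 and Olfr876 on chromosome 9, and inside Olfr724 on chromosome 14. Of the 15 WT peaks of 7 fragments and 4.73-fold tied at the next p, position put those by Olfr1411, Olfr748 and Olfr173 first. The peaks in Olfr724 and Olfr748 were the only ones of the 10 inside a receptor gene.

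In KO, 2 peaks had 10 fragments and 7.02-fold over background: chr14:49933813-49934058, 4245 bp upstream of Olfr723, and chr6:43221218-43221316, 3338 bp downstream of Olfr434. Peaks of 9 fragments lay by Olfr987 and Olfr963 and, 483 bp upstream of the annotated start, by Olfr1249 at chr2:89631379-89631535. Of 11 KO peaks of 7 fragments tied at 5.10-fold, those by Olfr9, Olfr1489, Olfr1012, Olfr1052 and Olfr1090 came first. None of the 10 was inside a receptor gene. The highest receptor peaks held rank 76 of 54397 in WT and 110 of 41907 in KO, ties included. No gene was near a top-10 peak of both lists, though Olfr723 and Olfr724 are both in the same cluster of chromosome 14. With 10 peaks a list there was little room for such an overlap, and a matching share over all genes was not computed.

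KO had fewer peaks than WT in Olfr territory, by a ratio close to that elsewhere. The ratio of KO to WT peaks was 0.762 (0.652 to 0.890) for Olfr territory, 291 against 382, and 0.770 (0.760 to 0.780) for the other autosomal peaks, 40831 against 53013. Among peaks of 5 or more fragments the ratio was 0.622 (0.498 to 0.775), 135 against 217, where the rest of the autosomes gave 0.708. Among those of 6 or more it was 0.608 (0.436 to 0.842) against 0.671. Each value for the rest lay inside the Olfr interval. For peaks at a caller q of 0.05 or smaller the direction turned, with 58 KO against 23 WT peaks, a ratio of 2.52 (1.53 to 4.28). It turned in the same way for the rest, at 2.196. This threshold did not ask for the same height in the 2 lists. A peak of 6 fragments and 4.14-fold in WT had a −log10 q of 1.07 and failed it. One of 6 fragments and 4.46-fold in KO had 1.38 and passed. The KO IP had 15468265 fragments after filtering and the WT IP 13615838, and the inputs 10000823 and 9385834; the part of depth and of fragment size in the WT and KO numbers was not tested.

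By chromosome, the KO to WT ratio of the rest lay inside the interval for Olfr territory on each of the 15 chromosomes with a peak there. KO peaks outnumbered WT peaks on 2 of them, chromosome 9 with 34 against 30 and chromosome 13 with 6 against 5. The widest gap on a chromosome with many receptor genes was on chromosome 10, at 13 KO and 26 WT peaks, with an interval of 0.236 to 1.01 for the ratio, where the rest gave 0.801. On chromosomes 2 and 7, which hold most of the peaks, the ratios were 0.866 (0.658 to 1.14) and 0.750 (0.537 to 1.04). These intervals leave room for sizeable differences in either direction at single clusters, which these counts cannot resolve.

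No Olfr peak was found at the same place in both lists. Among 382 in WT, 0 shared 1 bp or more with a KO peak. A count of 0 allows a share of up to 0.785% (Clopper-Pearson 0.961%), and across the autosomes 0.837% of WT peaks shared bases with one in KO. The same held for 0 of 291 in KO, which allows up to 1.03% (Clopper-Pearson 1.26%), against 1.08% across the autosomes. The autosomal shares are within these Clopper-Pearson limits, so for overlap itself a difference from the autosomes was not detectable. Within 500 bp of a KO peak lay 4 WT Olfr peaks, 1.05% (0.286 to 2.66%), against 2.92% of the others, which is above that interval. Within 1 kb lay 7, 1.83%, against 4.997% of the others. WT Olfr peaks thus had a KO peak close by less often than other WT peaks, by counting error alone. The others include peaks above 10 fragments, 0.289% of them, a height that no Olfr peak reached. Without those, the overlap share of the other WT peaks was 0.728% in place of 0.843%. The shares within 500 bp and 1 kb were not computed without them. The closest pair was on chromosome 2, at chr2:85653956-85654099 in WT and chr2:85653743-85653850 in KO, 105 bp apart and both with 5 fragments, within 10 kb of Olfr1002 and Olfr154.

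The second closest pair lay upstream of Olfr711, whose KO peak is shown in capitals above: the WT peak at chr7:106975760-106975864 lay 133 bp farther upstream, and both had 4 fragments. The other 2 pairs were 268 bp apart near Olfr429 on chromosome 1, with 5 fragments each, and 459 bp apart near Olfr46 on chromosome 7, with 5 in WT and 4 in KO. The median distance from a WT Olfr peak to the nearest KO peak was 21262.5 bp, and for the other WT peaks it was 19370 bp.

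Peaks lay within 10 kb of 392 of the 1104 Olfr genes in WT (35.5%, 32.7 to 38.4%) and of 297 in KO (26.9%, 24.3 to 29.6%). Of all 20665 autosomal protein-coding genes, 58.4% had a peak within 10 kb in WT and 39.9% in KO. Receptor genes are short, and a longer gene has a larger window. Among the 1338 other genes of at most 2 kb, a limit set after the values were seen, the share was 30.1% (27.7 to 32.7%) in WT and 17.8% (15.8 to 19.9%) in KO. Among the 953 Olfr genes of that length WT gave 34.5% (31.5 to 37.6%) and KO 26.2% (23.5 to 29.1%). These intervals overlapped that of the other short genes in WT and lay above it in KO. Against other genes of at most 2 kb, the share of receptor genes was thus not the lower one. The part of gene length in the difference from all genes was not tested. Neighbouring receptor genes share peaks, since 23.3% of WT and 22.7% of KO peaks were within 10 kb of 2 or 3 Olfr genes, so these intervals over genes are too narrow.

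A peak was near 278 Olfr genes in WT only (25.2%) against 28.3% of all genes, near 183 in KO only (16.6%) against 9.77%, near 114 in both (10.3%) against 30.2% and near 529 in neither (47.9%) against 31.8%. Among other genes of at most 2 kb, 23.9% were WT only, 11.6% KO only, 6.20% both and 58.3% neither. With 1 library each, WT only and KO only describe these 2 lists. No Olfr gene had more than 4 peaks within 10 kb, and 35 genes in WT (3.17%) and 23 in KO (2.08%) were overlapped by a peak, against 38.7% and 27.9% of all genes, most of which are far longer.

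Genes with the most peaks were mostly in the large chromosome 2 cluster. Olfr1033, whose annotated length is far above that of most receptor genes (86020640 to 86044808), had 3 WT peaks of 7, 5 and 4 fragments and 4 KO peaks of 6, 6, 5 and 4. Olfr1202 had 4 WT peaks of 5, 4, 4 and 4 fragments and no KO peak. Olfr541 on chromosome 7 had 4 WT peaks of 5, 5, 4 and 4 and 1 KO peak of 4. Olfr1026 had 3 WT peaks, of 7, 6 and 4 fragments, Olfr1055 had 3, of 6, 4 and 4, and neither had a KO peak. In KO, Olfr1216 had 4 peaks of 5, 5, 4 and 4 fragments and 1 WT peak of 4, and Olfr1313, in another chromosome 2 cluster, had 4 peaks of 6, 5, 5 and 5 and its nearest WT peak was 99.5 kb away. Olfr1012 had 3 KO peaks of 7, 5 and 4 fragments and 2 WT peaks of 6 and 4, and Olfr1054 had 3 KO peaks of 5, 5 and 4 and 1 WT peak of 4. These genes were picked for their number of peaks, so the numbers are a description.

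Some receptors of this family have been studied for roles outside the nose or for known odorants, and 11 of 12 listed symbols were in the table (Olfr151 did not match). A WT peak alone was within 10 kb of 3 of the 11 (28.3% of all genes), a KO peak alone of 3 others (9.77% of all genes), peaks of both lists of none (30.2%), and 5 had none (31.8%). Over all Olfr genes, which are closer in length, these shares were 25.2%, 16.6%, 10.3% and 47.9%. Olfr78, a receptor of short-chain fatty acids such as propionate and acetate that is known from the carotid body and the kidney, had 1 WT peak, chr7:102738256-102738414, 2307 bp away, with 7 fragments but only 3.26-fold over a raised background, and none in KO within 144 kb. Olfr544, a receptor of azelaic acid that has been studied in liver and fat, had a KO peak of 6 fragments and 3.17-fold, 6914 bp away, that is nearer to its neighbour Olfr545. Olfr1507 (MOR28), a gene used in work on receptor choice, had a WT peak of 4 fragments 4818 bp away.

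Olfr1019, a receptor of the fox odour trimethylthiazoline, had 2 WT peaks of 4 fragments, the nearer 232 bp away, and Olfr17 (P2) had 2 KO peaks of 5 fragments, the nearer 770 bp away. Olfr73 (mOR-EG), a eugenol receptor, had a KO peak of 4 fragments 9199 bp away. No peak was within 10 kb of Olfr734, studied as a liver receptor of asprosin, whose nearest was a WT peak 11.4 kb away. The same held for Olfr558, Olfr16 (MOR23), Olfr288 and Olfr160 (M72), whose nearest peak of either list was 26.2, 11.7, 35.5 and 20.1 kb away. Except for the Olfr78 and Olfr544 peaks, which had 7 and 6 fragments, the peaks by these receptors had 4 or 5 fragments, at the lower end of the range.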

How the data were processed

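Liver H3K23pr IP and input libraries of 1 WT and 1 KO group were used, grouped by title and genotype label. Trimming used cutadapt (1.9.3) and alignment to mm10 used Bowtie2 (2.2.4), per the submitters' processing notes. How reads with several matches were treated, which bears on near-identical receptor genes, is not given in the sources used here and was not tested. Narrow peaks were called for each IP against its input with MACS2 (2.1.1.20160309), per the file headers, from paired ends, keeping at most 2 duplicate fragments, with 0.001 as the p cutoff and 1870000000 bp as the genome size. Per the file headers, 13615838 WT and 15468265 KO IP fragments remained after filtering. The peak signal deposited by the authors is the pileup of IP fragments at the summit. The deposited fold was read as (pileup + 1) / (background + 1), and the authors' caller wrote −log10 p-values and −log10 q-values.

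From these, background was computed as (pileup + 1) / fold − 1, and counts with exact Poisson, Clopper-Pearson or conditional binomial 95% intervals (Python 3.11.15, scipy 1.17.1). The first 3 Mb of each chromosome, which held 0 autosomal peaks and 1 Olfr gene (Olfr100), were left out of the lengths. Counting was checked on simulated positions. Genes came from RefSeq (GRCm38.p6, the build of mm10). A gene was named if it was nearest to 1 of the 10 peaks of lowest p in a list (ties by fold, then position), among the 5 with most peaks, in the studied list or in a window with a peak; clusters were named if among the 5 largest, the 3 densest or the 3 sparsest, or class I. Other genes were named after their values were seen. The members and lists were chosen with earlier results of these data known. Flank, peak height, caller q, background, reference density, left-out chromosomes, overlap and cluster gap were varied.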

Additional observations from a re-analysis of the deposited data

How the results depend on the processing

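Of 53 alternatives, 11 of them chosen after seeing the data, 36 left the value within its counting interval, 16 moved it further and 1 reversed it. With the gene bodies alone, observed over expected was 0.745 in WT and 0.720 in KO (intervals reaching 1.04 and 1.06), KO over WT was 0.641, and 3.17% (WT) and 2.08% (KO) of Olfr genes had a peak, against 40.7% and 29.3% of other genes. With peaks of 5 or more fragments, observed over expected was 0.704 in KO, KO over WT was 0.622, and 22.1% and 13.04% of Olfr genes had a peak, against 50.1% and 32.5% of other genes. At a caller q of 0.05 or smaller, observed over expected was 0.538 in WT and 0.643 in KO, 2.90% and 6.16% of Olfr genes had a peak against 15.0% and 20.1% of other genes, and KO over WT reversed to 2.52. With a 50 kb flank, 85.0% and 73.9% of Olfr genes had a peak, against 89.5% and 67.4% of other genes, so in KO the share of Olfr genes was then the higher one. Within 500 bp, 1.05% of WT Olfr peaks had a KO peak, against 2.92% of other WT peaks. At that q, peaks of 6 fragments could pass in KO and not in WT, so the reversal does not compare peaks of equal height. The cause of these moves was not tested further, beyond the larger or smaller windows and fewer peaks that the settings themselves make. The KO interval for observed over expected also reached 1.00 for peaks at low background.

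No paired analysis was possible because each group is 1 library and the labels carry no replicate numbers. Peaks of 4 fragments rest on few molecules, the intervals cover counting error only, and no difference between WT and KO can be told apart from a difference between 2 libraries.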

Other observations

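Olfactory receptor sequences outside the autosomal protein-coding genes showed densities of the same order. Around 315 autosomal Olfr pseudogenes, in the 2.88 Mb within 10 kb of them that is not near a protein-coding Olfr gene, there were 50 WT peaks, 17.4 per Mb (12.90 to 22.9) against 22.4 expected, and 43 KO peaks, 15.0 per Mb (10.8 to 20.1) against 16.7 expected. The 6 X-linked Olfr genes had 0 WT peaks and 1 KO peak in 0.126 Mb, where fewer than 1 was expected in each list. The 35 bitter taste receptor genes (Tas2r), another chemosensory family, had 10 WT peaks against 13.8 expected and 15 KO peaks against 11.5 in 0.570 Mb. For the taste receptors the counting intervals on the density, 8.42 to 32.3 per Mb in WT and 14.7 to 43.4 in KO, include the expected 24.3 and 20.2 per Mb.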
